A study of Mus musculus with 2 samples.

Results

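The genes described here are 10 components of transforming growth factor beta (TGF-β) signaling, taken by symbol from the 32285 genes of the deposited count matrices. They comprise the 3 ligand genes Tgfb1, Tgfb2 and Tgfb3, the receptor genes Tgfbr1 and Tgfbr2, Tgfbrap1, whose product associates with the type I receptor, and the Smad genes Smad2, Smad3, Smad4 and Smad7. Every symbol occurred once, and all 10 genes were detected in both libraries.

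Hippocampal nuclei were profiled by 3′ single-nucleus RNA sequencing in 1 library of PS19 mice (PS19+/- Zbp1+/+) and 1 library of PZKO mice (PS19+/- Zbp1-/-), and the comparison asks what differs in the tauopathy model once Zbp1, a sensor of Z-form nucleic acids, is missing. Both groups carried the PS19 transgene, human tau with the P301S mutation under the mouse prion promoter, so neither library is free of the transgene. Hippocampi of 5 males were pooled for each library, at an age of 9 months. Each genotype is 1 library, so the genotypes were not tested against each other, intervals cover counting error only, and genotype, library, nuclei preparation and the animals in each pool cannot be told apart.

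TGF-β ligands are secreted in a latent complex and, once released, assemble type II and type I receptor kinases, encoded by Tgfbr2 and Tgfbr1. The type I receptor phosphorylates Smad2 and Smad3, which bind Smad4 and move to the nucleus to regulate transcription, and Smad7 is an inhibitory Smad that blocks the receptor and is itself induced by the pathway. In the brain, TGF-β is known as a signal that microglia need to keep their mature identity, while endothelial and mural cells use it in the vessel wall.

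In mm10 (GENCODE M21 gene models) the ligand and receptor genes and Smad3 are protein-coding genes that lie at separate loci, with Tgfb1 at chr7:25687002-25705077, Tgfb2 at chr1:186622792-186705989, Tgfb3 at chr12:86056745-86079041, Tgfbr1 at chr4:47353222-47414931, Tgfbr2 at chr9:116084293-116175360, Tgfbrap1 at chr1:43047200-43098637 and Smad3 at chr9:63646767-63757994. RefSeq promoter windows (GRCm38.p6) matched 6 of the 10 genes. The 250 bases before the start are shown for the ligand genes with the highest levels in separate cell classes, the receptor gene most concentrated in microglia and the Smad gene with the same direction in most classes. Positions are chr7:25686752-25687001 (plus strand), chr1:186705990-186706239 (minus strand), chr4:47352972-47353221 (plus strand, the first of 2 starts) and chr9:63757995-63758244 (minus strand), and capitals mark TATAAA, the TATA box letters, and CAGAC, the letters of a Smad-binding element, on either strand.
Tgfb1: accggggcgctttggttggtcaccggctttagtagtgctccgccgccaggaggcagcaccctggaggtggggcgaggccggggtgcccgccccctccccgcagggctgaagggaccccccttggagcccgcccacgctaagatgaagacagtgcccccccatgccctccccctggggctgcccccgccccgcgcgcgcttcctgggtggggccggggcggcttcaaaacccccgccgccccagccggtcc
Tgfb2: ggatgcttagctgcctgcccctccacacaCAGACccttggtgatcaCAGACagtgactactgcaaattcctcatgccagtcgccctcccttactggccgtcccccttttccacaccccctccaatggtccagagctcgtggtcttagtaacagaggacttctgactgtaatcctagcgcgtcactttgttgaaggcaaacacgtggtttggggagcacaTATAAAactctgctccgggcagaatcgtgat
Tgfbr1: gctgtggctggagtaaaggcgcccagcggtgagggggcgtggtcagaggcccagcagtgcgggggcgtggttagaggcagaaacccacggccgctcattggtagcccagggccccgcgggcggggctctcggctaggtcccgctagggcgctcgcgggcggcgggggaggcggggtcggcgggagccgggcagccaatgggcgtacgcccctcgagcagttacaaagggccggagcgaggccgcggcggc
Smad3: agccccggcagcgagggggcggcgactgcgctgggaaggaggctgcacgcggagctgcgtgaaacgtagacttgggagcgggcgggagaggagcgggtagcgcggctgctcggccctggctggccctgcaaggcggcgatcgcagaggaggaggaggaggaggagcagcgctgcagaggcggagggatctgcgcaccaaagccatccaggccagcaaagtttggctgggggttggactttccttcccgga
The Tgfb2 window held TATAAA once and CAGAC on 2 occasions, and the windows shown for Tgfb1, Tgfbr1 and Smad3 held neither. Over all 32851 windows of this length, 12.4% held TATAAA and 42.2% held CAGAC on either strand. The windows shown for Tgfb1, Tgfbr1 and Smad3 were GC-rich, with 75.2%, 74.8% and 69.2% of bases G or C, against 53.6% for Tgfb2. The window of the second Tgfbr1 start, which is not shown, held CAGAC once and had 52.8% G or C.

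After filtering, 9590 PS19 nuclei with 100571195 unique molecular identifiers (UMIs) and 9307 PZKO nuclei with 152268056 UMIs were kept, at median depths of 5849 and 9022 UMIs. They were assigned to 14 cell classes from marker genes, and 514 PS19 and 447 PZKO nuclei stayed unnamed. Zbp1 had 92 UMIs in PS19 and 38 in PZKO, 0.915 and 0.2496 CPM, counts scaled to a total of 1000000. Which part of Zbp1 is deleted is not given in the sources used here, so this low count checks the labels only in part. RNA from other cells was estimated at 0% in macrophages of both libraries and in T cells of PS19, classes of few nuclei, and was above 0 in the other classes. An estimated 29.1% and 25.3% of microglial UMIs and 49.1% and 41.05% of endothelial UMIs in PS19 and PZKO matched the pooled profile. Microglia had all 9 of their markers in at least 10% of nuclei in both libraries. The 8 choroid plexus markers summed to 814 CPM in PS19 microglia and 104 CPM in PZKO microglia. Excitatory neurons, oligodendrocytes and astrocytes were spread over their clusters in different proportions in the 2 libraries. Dentate granule cells were 1009 of 2754 PS19 and 514 of 3000 PZKO excitatory nuclei. Oligodendrocyte cluster 3 held 1113 and 460 nuclei and cluster 1 held 610 and 1025, and astrocyte clusters 5 and 6 held 655 and 427 PS19 nuclei against 541 and 626 PZKO nuclei. The 2 libraries shared 29 cell barcodes among the nuclei kept.

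Tgfb1 was a microglial transcript in both libraries. Its level is given as CPM, the UMIs of the gene after all UMIs of the class in that library were scaled to 1000000, with an exact Poisson interval, and was 147 CPM in PS19 (95% interval 135 to 161) and 148 CPM in PZKO (136 to 162). Microglia held 73.5% of its UMIs in PS19 and 73.96% in PZKO. Macrophages, with 22 and 11 nuclei, had 11 and 2 Tgfb1 UMIs, and their intervals overlapped those of microglia. Endothelial cells had 31.5 CPM in PS19 and 45.7 CPM in PZKO, and pericytes and mural cells had 50.3 CPM in PS19 and 28.1 CPM in PZKO. Both vascular classes were below microglia with intervals apart in both libraries. In astrocytes, oligodendrocytes and both neuron classes the level was between 0.311 and 1.83 CPM, where the estimate of RNA from other cells in oligodendrocytes was 1.36 and 0.748 CPM.

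Tgfb2 had another distribution, with its highest levels in choroid plexus and endothelial cells. It was highest in choroid plexus cells, at 233 CPM in PS19 (95% interval 214 to 254) and 231 CPM in PZKO (205 to 259), followed by endothelial cells at 155 CPM in PS19 (95% interval 125 to 188) and 205 CPM in PZKO (173 to 241). These neighbours were apart in PS19 and overlapped in PZKO. Pericytes and mural cells reached 90.5 CPM in PS19 and 96.4 CPM in PZKO and astrocytes 82.97 CPM in PS19 and 76.8 CPM in PZKO, and these levels overlapped in both libraries. Microglia had 9.51 CPM in PS19 and 8.96 CPM in PZKO, against 10.9 and 6.56 CPM from the estimated RNA of other cells. Excitatory neurons, at 31.96 CPM in PS19 and 20.1 CPM in PZKO, held 49.3% of its UMIs in PS19 and 47.6% in PZKO.

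Tgfb3 had 510 and 749 UMIs over all nuclei kept in PS19 and PZKO. Pericytes and mural cells led with 47.8 CPM in PS19 (95% interval 28.8 to 74.6) and 28.1 CPM in PZKO (15.4 to 47.2), from 19 and 14 UMIs. Oligodendrocytes had 11.9 CPM in PS19 (95% interval 9.74 to 14.3) and 14.4 CPM in PZKO (12.2 to 16.9) and inhibitory neurons 10.2 CPM in PS19 (95% interval 8.42 to 12.2) and 9.84 CPM in PZKO (8.52 to 11.3). These 2 levels overlapped in PS19 and were apart in PZKO. Excitatory neurons lay lower, at 2.39 CPM in PS19 and 2.55 CPM in PZKO, and microglia had 1 and 4 UMIs.

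Tgfbr1, the type I receptor gene, was concentrated in microglia. They had 2899 CPM in PS19 (95% interval 2841 to 2958) and 3001 CPM in PZKO (2943 to 3060.4), above every other class with intervals apart in both libraries, and held 75.3% of its UMIs in PS19 and 72.3% in PZKO. Macrophages followed with 715 CPM in PS19 and 277 CPM in PZKO, from 50 and 10 UMIs, and then vascular leptomeningeal cells (VLMC) with 266 CPM in PS19 (95% interval 222 to 316) and 289 CPM in PZKO (261 to 320.1). Those 2 classes were apart in PS19 and overlapped in PZKO. Endothelial cells, at 114 CPM in PS19 and 111 CPM in PZKO, and oligodendrocyte precursor cells (OPC), at 93.5 CPM in PS19 and 89.7 CPM in PZKO, did not differ beyond their intervals. Inhibitory neurons had 19.8 CPM in PS19 and 17.4 CPM in PZKO, while the RNA of other cells was estimated at 21.9 and 13.4 CPM. The level was thus below its estimate in PS19, and in PZKO its interval, 15.7 to 19.4 CPM, lay above it. In inhibitory neurons a level apart from that RNA was therefore not seen in both libraries. Excitatory neurons had 20.3 CPM in PS19 (95% interval 19.1 to 21.5) and 13.2 CPM in PZKO (12.5 to 13.98). These intervals lay above their estimates of 12.97 and 10.1 CPM.

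Tgfbr2, the type II receptor gene, was shared by myeloid, ventricular and vascular classes. Macrophages had 843 CPM in PS19 (95% interval 642 to 1088) and 637 CPM in PZKO (404 to 956) and microglia 654 CPM in PS19 (95% interval 627 to 683) and 678 CPM in PZKO (650.1 to 706), which overlapped. T cells, the choroid plexus, ependymal cells and endothelial cells formed the next group. Ependymal cells had 273 CPM in PS19 and 256 CPM in PZKO, choroid plexus cells 244 CPM in PS19 and 281 CPM in PZKO and endothelial cells 224 CPM in PS19 and 206 CPM in PZKO. OPC, oligodendrocytes and excitatory neurons had the lowest levels and overlapped, with 4.71 CPM in PS19 and 4.63 CPM in PZKO, 3.66 CPM in PS19 and 3.35 CPM in PZKO, and 3.52 CPM in PS19 and 3.15 CPM in PZKO. RNA from other cells was estimated at 5.3 and 3.66 CPM in OPC, 8.36 and 4.86 CPM in oligodendrocytes and 4.16 and 3.18 CPM in excitatory neurons. Only the OPC value in PZKO was above its estimate, from 11 UMIs and with an interval of 2.31 to 8.29 CPM that held it. In oligodendrocytes the intervals, 2.54 to 5.12 CPM in PS19 and 2.33 to 4.66 CPM in PZKO, lay below the estimate. It was thus too high for that class. Excitatory neurons were not uniform. Those assigned to cortex or subiculum had 9.77 CPM in PS19 (95% interval 7.73 to 12.2) and 10.6 CPM in PZKO (8.96 to 12.4), and CA1 neurons 0.429 and 0.303 CPM. Tgfbr1 in the same oligodendrocytes was 68.5 CPM in PS19 and 72.6 CPM in PZKO, above its estimate of 26.1 and 15.5 CPM. Tgfbrap1 lay between 22.8 and 65.98 CPM in the classes with enough UMIs. These ends were excitatory neurons and VLMC in PS19, with intervals apart.

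Of the Smads, Smad2 and Smad4 were spread over the classes with few steps between neighbours, although Smad4 had 8 UMIs in PS19 macrophages and 0 in PZKO macrophages. Smad2 was 130.3 CPM in PS19 and 139 CPM in PZKO in microglia and 32.7 CPM in PS19 and 36.7 CPM in PZKO in oligodendrocytes, the lowest class. Smad4, the common partner, was 148 CPM in PS19 and 112 CPM in PZKO in pericytes and mural cells and 44.8 CPM in PS19 and 43.8 CPM in PZKO in inhibitory neurons. Smad3 varied more. It was highest in VLMC, at 272 CPM in PS19 (95% interval 228 to 323) and 362 CPM in PZKO (330.3 to 396), followed by microglia at 145 CPM in PS19 (95% interval 132 to 159) and 202 CPM in PZKO (187 to 218), and, among classes with at least 100 UMIs of the gene, lowest in inhibitory neurons at 12.4 CPM in PS19 (95% interval 10.5 to 14.6) and 14.9 CPM in PZKO (13.2 to 16.6). T cells overlapped VLMC, with 9 and 36 UMIs. Excitatory neurons, at 60.9 CPM in PS19 and 79.2 CPM in PZKO, held 69.05% of its UMIs in PS19 and 73.7% in PZKO.

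Smad7, the inhibitory Smad, was led by oligodendrocytes, with 209 CPM in PS19 (95% interval 199.6 to 218) and 218 CPM in PZKO (209 to 227). Endothelial cells had 109 CPM in PS19 and 145 CPM in PZKO and microglia 103 CPM in PS19 and 122 CPM in PZKO, which overlapped. OPC, the precursors of oligodendrocytes, had 24.2 CPM in PS19 (95% interval 16.97 to 33.5) and 26.1 CPM in PZKO (20.01 to 33.5). Oligodendrocytes were thus above OPC with intervals apart in both libraries, while T cells, with 12 and 6 UMIs, overlapped them in PS19. Astrocytes and both neuron classes lay between 13.9 and 17.4 CPM.

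**Figure D1:**
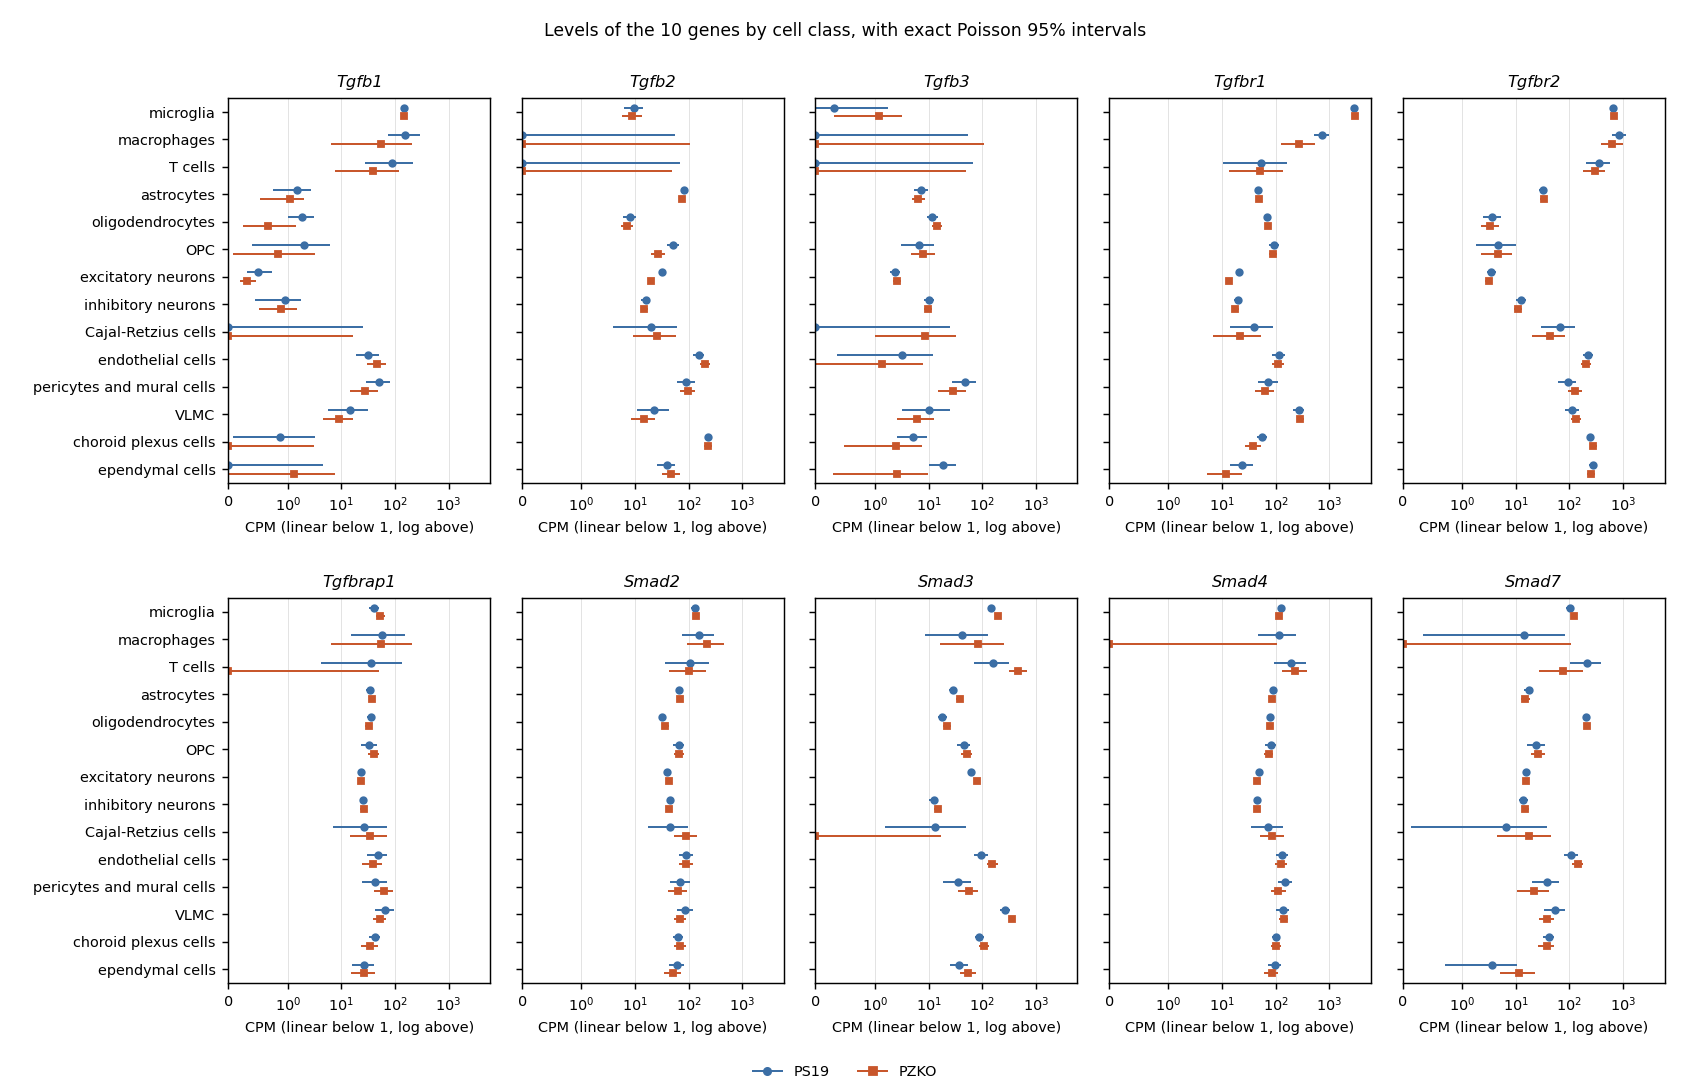
Level of each of the 10 genes (horizontal axis, CPM, linear below 1 and logarithmic above) in 14 cell classes (vertical axis) in the PS19 library (blue circles) and the PZKO library (orange squares), with exact Poisson 95% intervals as bars. Tgfb1, Tgfbr1 and Tgfbr2 sit to the right in microglia, Tgfb2 in choroid plexus and endothelial cells and Smad7 in oligodendrocytes. Tgfbrap1, Smad2 and Smad4 span a narrower range in most classes.

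Over the 11 classes with at least 50 nuclei in each library, the genes whose log2(CPM + 1) followed a member most closely were found among 14819 genes. They are given with Pearson's r as a description, since classes share libraries and differ in depth. For Tgfb1 they were Prdm1 (0.98), Bag1 (0.97), Cdkn2aipnl (0.97), for Tgfb2 Ccdc141 (0.88), Il17rd (0.88) and for Tgfb3 Gm43660 (0.92), Ppp1r3e (0.87), Pde3a (0.84). For the receptor genes they were Tbck (0.97), Zfp472 (0.97), Hnrnpul1 (0.96) for Tgfbr1 and Tnfaip8 (0.95), Mapkapk3 (0.95), Asxl1 (0.94) for Tgfbr2, and Gm44148 (0.96), Mrpl14 (0.95), Sufu (0.95) for Tgfbrap1. For Smad2 they were Parp9 (0.97), Etv6 (0.95), Arid4a (0.95), for Smad3 Rilpl1 (0.90), Tmem64 (0.89), Gm11867 (0.89), for Smad4 Kansl1l (0.97), Lsm14a (0.96), Gtf2e2 (0.96) and for Smad7 Appbp2 (0.97), Ctbp1 (0.97), Pdcd6ip (0.94). Tgfb1 and Tgfbr1 followed each other with an r of 0.80, and Tgfb1 and Tgfb2 had an r of −0.04.

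Summed over all nuclei, Tgfb1, Tgfbr1 and Tgfbr2 were lower in PZKO, but within microglia, which hold most of their UMIs, they were not. Over all nuclei kept the log2 ratio of PZKO over PS19 was −0.56 (95% interval −0.72 to −0.40) for Tgfb1, −0.45 (95% interval −0.49 to −0.42) for Tgfbr1 and −0.48 (95% interval −0.54 to −0.42) for Tgfbr2. Within microglia it was 0.01 (95% interval −0.17 to 0.19), 0.05 (95% interval 0.01 to 0.09) and 0.05 (95% interval −0.04 to 0.14). The microglial class held 947 nuclei in PS19 and 754 in PZKO, and the median depth of excitatory neurons was 18760 and 27984 UMIs. The part of the mix of nuclei in the sums was not tested, so the comparisons below are made within classes.

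Within classes, a gene was counted as past the fold when its log2 ratio was at least 0.322 in either direction (called the fold below) and it had at least 100 UMIs over both libraries. In microglia 8 of the 10 genes had enough UMIs, of which Smad3 and Tgfbrap1 were higher in PZKO, 0 were lower and 6 lay within the fold, while Tgfb2 and Tgfb3 had too few UMIs. Among all 8478 genes with enough UMIs in microglia, 8.45% were higher and 14.7% lower by the same rule. The paper had already named Smad3 and Tgfbrap1 as higher in PZKO microglia from these libraries. Their count beside that share is therefore not an independent result. Smad3, the signal transducer, was 145 CPM in PS19 (95% interval 132 to 159) and 202 CPM in PZKO (187 to 218), a log2 ratio of 0.48 (95% interval 0.31 to 0.65). Tgfbrap1 was 41.1 CPM in PS19 and 53.7 CPM in PZKO, a log2 ratio of 0.39 (95% interval 0.06 to 0.72), and fell short of the fold when the mean over nuclei or a stricter filter on nuclei was used, at 0.28 and 0.316. The estimate of RNA from other cells for Smad3 was 14.9 and 16.7 CPM. Smad7 had a log2 ratio of 0.25 (95% interval 0.04 to 0.46), Smad2 of 0.09 (95% interval −0.10 to 0.29) and Smad4 of −0.11 (95% interval −0.32 to 0.09). The ligand and both receptors of microglia thus stayed within 1.04-fold between the libraries while Smad3 did not. The median of the 8 genes was 0.07, against −0.02 for all genes with enough UMIs.

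**Figure D2:**
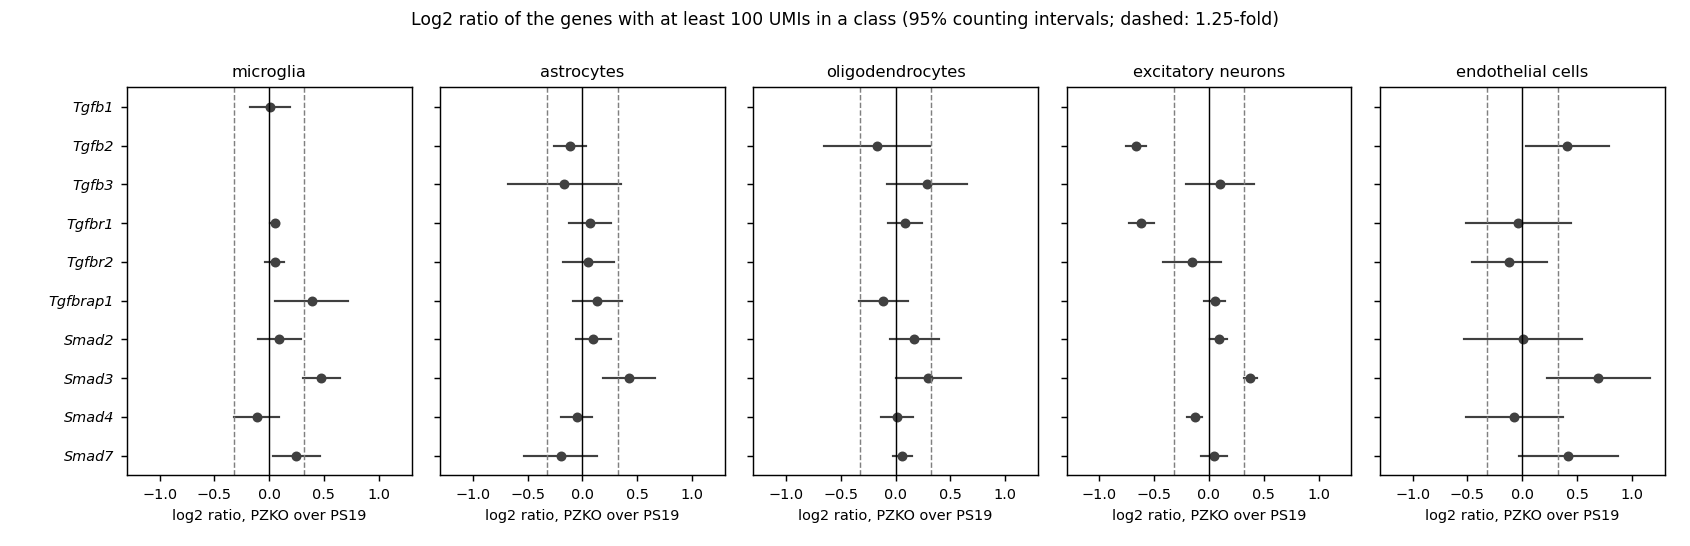
Log2 ratio of PZKO over PS19 (horizontal axis) for each gene with at least 100 UMIs (vertical axis) in 5 cell classes, with exact conditional 95% intervals of counting error as bars and the fold limits, 0.322 on either side of 0, as dashed lines. Smad3 lies right of 0 in all 5 panels, and Tgfb2 and Tgfbr1 lie left of the lower limit in excitatory neurons.

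Microglia were split into states by markers, giving 383 PS19 and 342 PZKO homeostatic nuclei, 357 and 240 disease-associated nuclei, 58 and 74 interferon-responsive nuclei, and 149 and 98 nuclei with no state named. Smad3 was higher in PZKO in the homeostatic state, 176 CPM in PS19 and 230.1 CPM in PZKO, with a log2 ratio of 0.39 (95% interval 0.13 to 0.65), and in the disease-associated state, 117 CPM in PS19 and 185 CPM in PZKO, with a ratio of 0.66 (95% interval 0.36 to 0.96). In the interferon-responsive state, with 38 and 54 UMIs, the ratio was −0.10 (95% interval −0.73 to 0.54), an interval that held 0. Within PS19 the level was lower in disease-associated than in homeostatic nuclei, with intervals of 100.1 to 137 and 152 to 201 CPM that were apart. Within PZKO they were 162 to 211 and 206 to 257 CPM and overlapped.

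Tgfbr1 stayed high in every state. It was 2687 CPM in PS19 and 3188 CPM in PZKO in homeostatic nuclei, a log2 ratio of 0.25 (95% interval 0.18 to 0.31), and 3034 CPM in PS19 and 2958 CPM in PZKO in disease-associated nuclei, a ratio of −0.04 (95% interval −0.10 to 0.03). Tgfb1 had ratios of 0.19 (95% interval −0.09 to 0.48) and −0.30 (95% interval −0.60 to −0.00) in the same states, and Tgfbr2 of −0.00 (95% interval −0.15 to 0.15) and 0.14 (95% interval 0.01 to 0.28). None of these reached the fold. Smad7 was also within the fold in both, with ratios of 0.21 (95% interval −0.13 to 0.54) and 0.22 (95% interval −0.12 to 0.56). The interferon-responsive nuclei, with 40 and 37 Smad7 UMIs, and the nuclei with no state named, with 25 and 49, were under the minimum of 100 UMIs, and their ratios were −0.72 (95% interval −1.41 to −0.04) and 1.34 (95% interval 0.62 to 2.10). States were clusters of the same nuclei, so levels that differ between states of a library are a description.

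**Figure D3:**
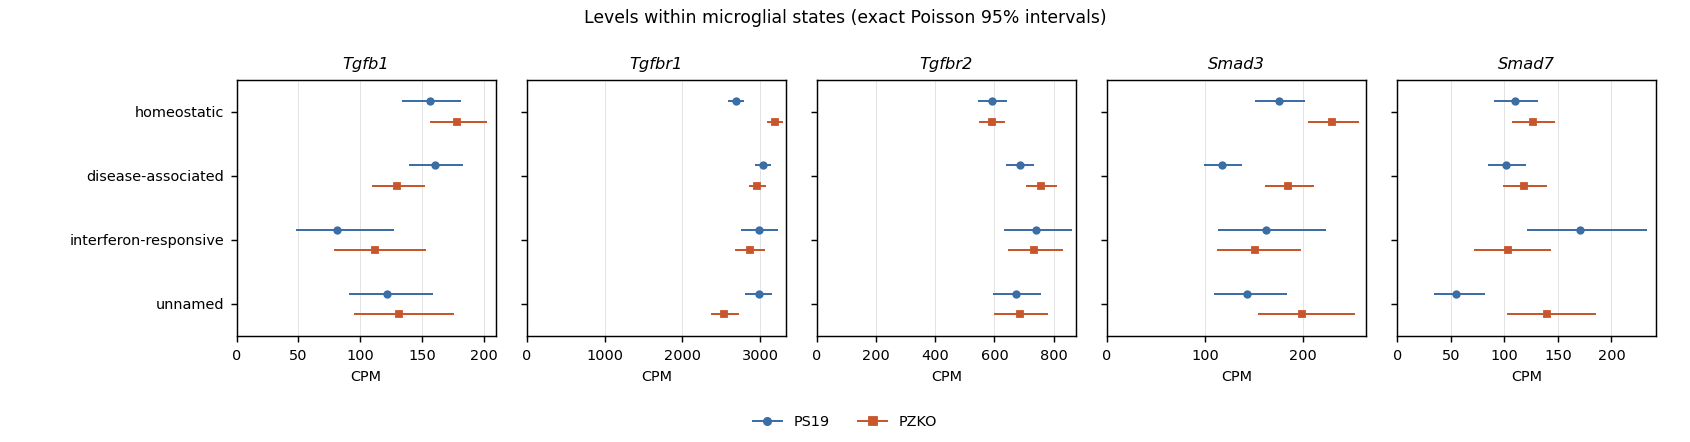
Levels of 5 genes (horizontal axes, CPM, each starting at 0) in 4 groups of microglial nuclei (vertical axis) in PS19 (blue circles) and PZKO (orange squares), with exact Poisson 95% intervals as bars. Smad3 is to the right in PZKO in homeostatic and disease-associated nuclei, and Tgfbr1 lies between 2539.8 and 3188 CPM throughout.

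In astrocytes Smad3 alone passed the fold. Of 9 genes with enough UMIs, all but Tgfb1, it was higher in PZKO and 8 lay within the fold, beside 6.23% higher and 19.9% lower among 11835 genes. Smad3 was 28.5 CPM in PS19 (95% interval 24.96 to 32.4) and 38.2 CPM in PZKO (34.7 to 42.1), a log2 ratio of 0.42 (95% interval 0.19 to 0.66). By cluster it was 25.5 and 32.99 CPM in astrocyte cluster 5 and 34.3 and 44.1 CPM in cluster 6, in PS19 and PZKO. Tgfb2 had a ratio of −0.11 (95% interval −0.26 to 0.04). With Smad3 the largest and Smad7 the smallest, the ratios ran from −0.20 to 0.42.

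In oligodendrocytes 8 genes had enough UMIs, all but Tgfb1 and Tgfbr2, and 0 of them passed the fold in either direction, beside 6.03% higher and 16.9% lower among 10725 genes. Smad7 had a log2 ratio of 0.06 (95% interval −0.03 to 0.15). Smad3 came closest to the fold, at 17.997 CPM in PS19 and 22.1 CPM in PZKO and a ratio of 0.30 (95% interval 0.00 to 0.59). It differed between clusters, with 24.3 and 30.3 CPM in cluster 1 and 8.62 and 13.2 CPM in cluster 2, in PS19 and PZKO. Cluster 3, which PS19 nuclei dominate, went the other way, with 22.7 and 17.2 CPM from only 73 and 24 UMIs. RNA from other cells was estimated at 10.7 and 11.2 CPM for Smad3 over all oligodendrocytes. Tgfb3 had a ratio of 0.29 (95% interval −0.08 to 0.65).

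Endothelial cells had 7 genes with enough UMIs, of which Tgfb2, Smad3 and Smad7 were higher in PZKO, 0 were lower and 4 lay within the fold, while Tgfb1, Tgfb3 and Tgfbrap1 had too few UMIs. Among 2984 genes in this class 16.3% were higher and 16.6% lower. Smad3 was 96.2 CPM in PS19 (95% interval 73.6 to 124) and 155 CPM in PZKO (128 to 187), a log2 ratio of 0.69 (95% interval 0.23 to 1.16). Tgfb2 had a ratio of 0.41 (95% interval 0.03 to 0.79) and Smad7 of 0.42 (95% interval −0.03 to 0.88). RNA from other cells was estimated at 25.1 and 27.02 CPM for Smad3 and 18.4 and 10.6 CPM for Tgfb2. Both receptors were within the fold, with −0.03 (95% interval −0.51 to 0.45) for Tgfbr1 and −0.12 (95% interval −0.46 to 0.22) for Tgfbr2. All 3 calls were lost when putative doublets were kept, which gave 0.00 for Tgfb2, 0.30 for Smad3 and 0.18 for Smad7, and Tgfb2 reached 1.13 under a stricter filter on nuclei.

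Excitatory neurons held the only members that were lower in PZKO within a main class. Of 9 genes with enough UMIs, all but Tgfb1, Smad3 was higher and Tgfb2 and Tgfbr1 were lower, beside 8.06% higher and 17.7% lower among 15912 genes. Tgfb2 was 31.96 CPM in PS19 (95% interval 30.5 to 33.4) and 20.1 CPM in PZKO (19.2 to 21.1), a log2 ratio of −0.67 (95% interval −0.76 to −0.57). Tgfbr1 was 20.3 CPM in PS19 (95% interval 19.1 to 21.5) and 13.2 CPM in PZKO (12.5 to 13.98), a ratio of −0.62 (95% interval −0.73 to −0.50). Both calls were lost with equal weights of the sub-classes in both libraries, which gave −0.21 and −0.21, within the fold. Subtracting the estimated RNA of other cells gave −1.24 for Tgfbr1. Smad3, at 60.9 CPM in PS19 (95% interval 58.9 to 62.9) and 79.2 CPM in PZKO (77.4 to 81.02), had a ratio of 0.38 (95% interval 0.32 to 0.44), and equal weights gave 0.40, while the mean over nuclei gave 0.31, short of the fold.

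The sub-classes of excitatory neurons differed in these genes. Tgfb2 was highest in CA3 neurons, at 75.3 CPM in PS19 (95% interval 69.5 to 81.4) and 70.5 CPM in PZKO (65.6 to 75.6), a log2 ratio of −0.10 (95% interval −0.25 to 0.06). Dentate granule cells had 51.6 CPM in PS19 and 44.9 CPM in PZKO, a ratio of −0.20 (95% interval −0.37 to −0.04). In CA1 neurons Tgfb2 was 32.7 CPM in PS19 and 21.4 CPM in PZKO, a ratio of −0.61 (95% interval −0.85 to −0.37), the only sub-class past the fold. Neurons of the cortex or subiculum had 5.81 CPM in PS19 and 5.65 CPM in PZKO.

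Tgfbr1 marked dentate granule cells, with 50.5 CPM in PS19 (95% interval 47.02 to 54.2) and 43.4 CPM in PZKO (39.6 to 47.4), a ratio of −0.22 (95% interval −0.39 to −0.05). The other sub-classes lay between 2.53 and 14.2 CPM, where RNA of other cells was estimated at 12.97 and 10.1 CPM over all excitatory neurons. The levels in CA1, CA3 and cortex or subiculum were below that estimate in both libraries. In CA3 the intervals, 1.56 to 3.86 CPM in PS19 and 2.80 to 5.22 CPM in PZKO, lay below it. The estimate was thus too high for CA3 and is not a floor for the sub-classes. The levels in neurons with no region assigned were above the estimate. Their intervals, 12.5 to 16.1 CPM in PS19 and 9.68 to 11.6 CPM in PZKO, held it. Cortex or subiculum pooled cluster 9, at 5.77 and 3.12 CPM, with cluster 24, at 22.8 and 24.8 CPM from 46 and 92 UMIs. Of these clusters only cluster 24 was thus above the estimate in both libraries. Neurons with no region assigned were also pooled from several clusters. Among them cluster 7 was above the estimate in both, at 17.3 CPM in PS19 and 15.6 CPM in PZKO from 149 and 327 UMIs. By the fold Tgfbr1 was lower in neurons with no region assigned, at a ratio of −0.42 (95% interval −0.64 to −0.19), and higher in CA1, at 0.40 (95% interval −0.05 to 0.87) from 62 and 116 UMIs, an interval that held 0. The ratio in cortex or subiculum was −0.17 (95% interval −0.59 to 0.25), and CA3 had 21 and 43 UMIs, under the minimum. Smad3 was also highest in dentate granule cells in PS19, at 95.7 CPM in PS19 (95% interval 90.9 to 101) and 108 CPM in PZKO (102 to 114), a ratio of 0.17 (95% interval 0.06 to 0.28). Its ratio was 0.10 (95% interval −0.07 to 0.28) in CA1, 0.58 (95% interval 0.32 to 0.85) in CA3, 0.56 (95% interval 0.35 to 0.77) in cortex or subiculum and 0.55 (95% interval 0.46 to 0.65) in neurons with no region assigned. All 5 were above 0, and the interval in CA1 held 0.

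**Figure D4:**
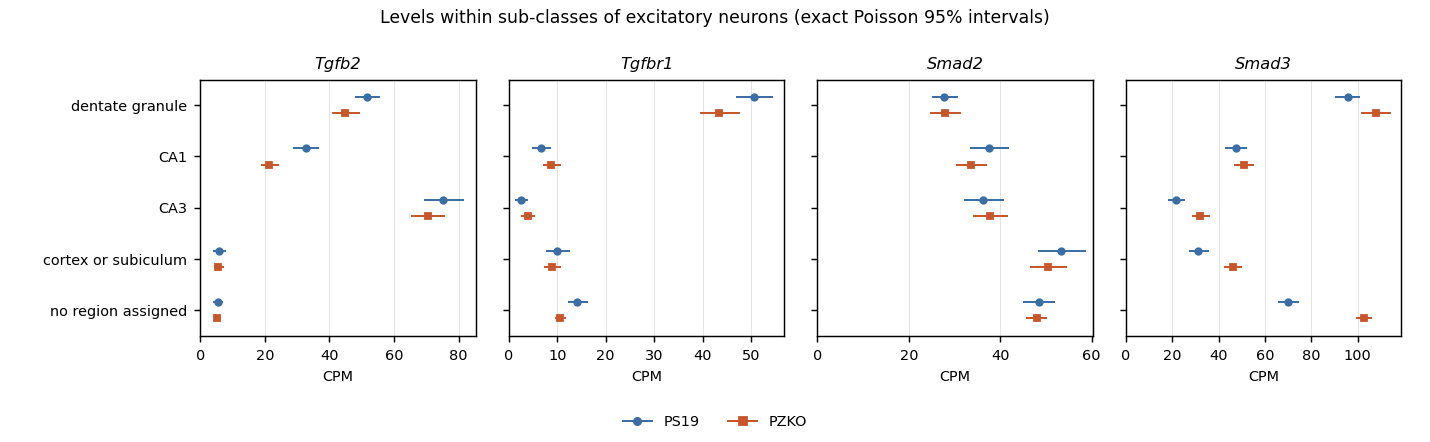
Levels of 4 genes (horizontal axes, CPM, each starting at 0) in 5 groups of excitatory neurons (vertical axis) in PS19 (blue circles) and PZKO (orange squares), with exact Poisson 95% intervals as bars. Tgfb2 is highest in CA3 neurons and Tgfbr1 in dentate granule cells. Smad3 lies to the right in PZKO in all 5 groups, with intervals that overlap only in CA1. Smad2 overlaps in every group.

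Smad3 was the member with the same direction in most classes. It had at least 100 UMIs in 9 classes, and its ratio was above 0 in all 9, with an interval above 0 in 6 of them. Of 2034 genes with enough UMIs in the same classes, 5.7% were above 0 in every one. Macrophages, T cells, pericytes and mural cells and ependymal cells were under the minimum, with 3 and 3, 9 and 36, 14 and 28, and 32 and 42 UMIs. Their ratios were above 0, but only the interval in T cells did not hold 0. Cajal-Retzius cells had 2 and 0 UMIs. No share over all genes was computed for these classes or for the count of intervals above 0. Within classes the Smad3 ratio was below 0 in interferon-responsive microglia, with 38 and 54 UMIs, and in oligodendrocyte cluster 3, with 73 and 24. VLMC had 272 CPM in PS19 and 362 CPM in PZKO, a ratio of 0.41 (95% interval 0.13 to 0.70), choroid plexus cells 0.28 (95% interval −0.05 to 0.60), inhibitory neurons 0.26 (95% interval −0.03 to 0.56) and OPC 0.19 (95% interval −0.25 to 0.64). Over all nuclei kept the ratio was 0.37 (95% interval 0.32 to 0.41).

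Gene length moved with the ratios. Smad3 spans 111 kb, the longest of the 10 genes, and Tgfb1 18.1 kb, the shortest. In microglia the median ratio was −0.17 for genes under 20 kb and 0.12 for genes of 100 kb or more, of which 17.6% were higher in PZKO past the fold. In excitatory neurons that share was 17.4% and in astrocytes 15.7%. Cytosolic ribosomal protein genes had a median of −0.45 and mitochondrially encoded genes of −0.58 in microglia. The part of these shifts in the Smad3 ratio was not tested.

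Smad4 did not pass the fold in a main class. Its ratio was above 0 in 2 of 11 classes with enough UMIs, with −0.13 (95% interval −0.20 to −0.06) in excitatory neurons. Smad2 was above 0 in 7 of 9 classes and stayed between −0.29 and 0.17. In the classes counted for Smad4 the share of all genes above 0 ran from 37.95% in excitatory neurons to 60.04% in pericytes and mural cells. Outside the 5 main classes Smad4 in pericytes and mural cells had a ratio of −0.40 (95% interval −0.95 to 0.15) and Tgfbr2 there of 0.44 (95% interval −0.16 to 1.07). Tgfbrap1 in VLMC had a ratio of −0.34 (95% interval −0.96 to 0.32). Each was past the fold with few UMIs and an interval that held 0. No share of all genes past the fold was computed for these classes or for choroid plexus cells. Tgfb2 was lower in OPC, at 51.8 CPM in PS19 (95% interval 40.9 to 64.8) and 27.4 CPM in PZKO (21.1 to 34.9). The ratio was −0.92 (95% interval −1.42 to −0.43). The OPC class was not alike in both libraries, since the 9 oligodendrocyte markers summed to 642.7 CPM in PS19 and 1642.5 CPM in PZKO. The part of this in the ratio was not tested. The share past the fold in OPC was computed only by gene length. Of 3226 genes of 20 to 100 kb, the group of Tgfb2 (83.2 kb), 14.8% were lower in PZKO. Tgfbr1 in choroid plexus cells was 55.04 CPM in PS19 and 37.6 CPM in PZKO, a ratio of −0.55 (95% interval −1.07 to −0.05). The class held 261 PS19 and 94 PZKO nuclei. RNA of other cells was estimated at 21.7 and 10.1 CPM for Tgfbr1 there. The part of this in the ratio was not tested, and the ratio was not recomputed under the alternatives. The intervals of Tgfb2 in choroid plexus cells, −0.02 (95% interval −0.23 to 0.20), and of Tgfbr2 in ependymal cells, −0.09 (95% interval −0.37 to 0.19), held 0.

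The rest of the pathway was followed in 67 further genes in 7 lists, which cover latency and activation, accessory receptors, activin and BMP ligands, activin and BMP receptors, other Smads, Smad partners and inhibitors, and induced targets. In microglia 31 of them had enough UMIs, with 2 higher and 6 lower in PZKO. The counts were 5 higher and 8 lower of 48 in astrocytes, 3 and 5 of 32 in oligodendrocytes, 6 and 6 of 48 in excitatory neurons, and 3 and 3 of 23 in endothelial cells. Over all genes with enough UMIs 8.45% were higher and 14.7% lower in microglia, and 6.23% and 19.9% in astrocytes. These shares were 6.03% and 16.9% in oligodendrocytes, 8.06% and 17.7% in excitatory neurons, and 16.3% and 16.6% in endothelial cells. Medians of all lists together were 0.07, 0.01, 0.10, 0.01 and 0.08, beside all-gene medians of −0.02, −0.06, −0.04, −0.07 and 0.02.

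Of the genes that store, present or release the ligand, 5 had enough UMIs in microglia, 0 were higher, and Itgb8 and Furin were lower. Over all genes with enough UMIs in microglia 8.45% were higher and 14.7% lower. Itgb8, the activating integrin subunit, was 20.8 CPM in PS19 and 16.1 CPM in PZKO, a log2 ratio of −0.37 (95% interval −0.91 to 0.17), and Furin, the protease that cleaves the precursor, which was picked after its values were seen, 38.9 CPM in PS19 and 28.96 CPM in PZKO, a log2 ratio of −0.43 (95% interval −0.82 to −0.03). Itgb5, an integrin subunit, was 887 CPM in PS19 and 896 CPM in PZKO, a log2 ratio of 0.02 (95% interval −0.06 to 0.09), and Itgav, its partner, 243 CPM in PS19 and 263 CPM in PZKO, a log2 ratio of 0.11 (95% interval −0.03 to 0.25). Nrros, which anchors latent TGF-β1 on microglia and was picked after its values were seen, was 283 CPM in PS19 and 279.7 CPM in PZKO, a log2 ratio of −0.02 (95% interval −0.15 to 0.12). In astrocytes Itgb8 was 267 CPM in PS19 and 264 CPM in PZKO, a log2 ratio of −0.01 (95% interval −0.09 to 0.07). In excitatory neurons it was lower, 23.8 CPM in PS19 and 18.02 CPM in PZKO, a log2 ratio of −0.40 (95% interval −0.51 to −0.30), and Ltbp3, a latent TGF-β binding protein, was higher, 4.63 CPM in PS19 and 6.74 CPM in PZKO, a log2 ratio of 0.54 (95% interval 0.33 to 0.75). Among the accessory receptors, Eng was 29.1 CPM in PS19 and 48.4 CPM in PZKO, a log2 ratio of 0.73 (95% interval 0.36 to 1.11) in microglia and 525 CPM in PS19 and 489 CPM in PZKO, a log2 ratio of −0.10 (95% interval −0.32 to 0.12) in endothelial cells. Tgfbr3, the type III receptor, was 355 CPM in PS19 and 260.4 CPM in PZKO, a log2 ratio of −0.45 (95% interval −0.73 to −0.16) in endothelial cells.

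In endothelial cells the other inhibitory Smad, Smad6, was 66.2 CPM in PS19 and 148 CPM in PZKO, a log2 ratio of 1.16 (95% interval 0.63 to 1.71), and Smad1, a Smad of the BMP branch, 104 CPM in PS19 and 154 CPM in PZKO, a log2 ratio of 0.56 (95% interval 0.11 to 1.03). The list holds 4 genes, and the 2 with enough UMIs there were both past the fold. In this class 16.3% of all genes with enough UMIs were higher by the same rule. Calls for members in endothelial cells were lost when putative doublets were kept. Whether the calls for Smad6 and Smad1 depend on doublets was not tested. Among partners and inhibitors 12 of 12 lay within the fold in microglia, beside 8.45% higher and 14.7% lower past it among all genes. Ldlrad4, which sequesters Smad2 and Smad3, was 1544 CPM in PS19 and 1896 CPM in PZKO, a log2 ratio of 0.30 (95% interval 0.24 to 0.35), and Ski, a corepressor, was past the fold in oligodendrocytes, 48.1 CPM in PS19 and 63.9 CPM in PZKO, a log2 ratio of 0.41 (95% interval 0.24 to 0.59). Smurf1, a ubiquitin ligase that acts with Smad7, was higher in excitatory neurons, 48.3 CPM in PS19 and 65.9 CPM in PZKO, a log2 ratio of 0.45 (95% interval 0.38 to 0.51), and in oligodendrocytes, 37.3 CPM in PS19 and 48.7 CPM in PZKO, a log2 ratio of 0.38 (95% interval 0.19 to 0.59). Bambi, a pseudoreceptor, was lower in excitatory neurons, 2.71 CPM in PS19 and 1.598 CPM in PZKO, a log2 ratio of −0.76 (95% interval −1.10 to −0.43). The calls for Tgfb2 and Tgfbr1 in excitatory neurons were lost with equal weights of sub-classes. Whether those for Smurf1 and Bambi depend on the weights was not tested. Nedd4l in astrocytes was 221 CPM in PS19 and 276 CPM in PZKO, a log2 ratio of 0.32 (95% interval 0.24 to 0.41), and Bmp7 there 7.28 CPM in PS19 and 11.7 CPM in PZKO, a log2 ratio of 0.69 (95% interval 0.23 to 1.16).

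Genes known to be induced by TGF-β or BMP were lower in PZKO where they passed the fold, except in excitatory neurons. Over all genes with enough UMIs the shares lower were 14.7% in microglia, 19.9% in astrocytes, 16.9% in oligodendrocytes and 16.6% in endothelial cells. In microglia 4 of 5 with enough UMIs were lower, in astrocytes 2 of 8, in oligodendrocytes 3 of 7 and in endothelial cells 2 of 4. In each of these classes 0 were higher, whereas excitatory neurons had 2 higher and 1 lower of 8. The astrocyte count was near the share of all genes, and the excitatory calls were not recomputed with equal weights of sub-classes. Id3, an inhibitor of DNA binding, was 197 CPM in PS19 and 131 CPM in PZKO, a log2 ratio of −0.59 (95% interval −0.69 to −0.48) in astrocytes and 194 CPM in PS19 and 107 CPM in PZKO, a log2 ratio of −0.86 (95% interval −1.29 to −0.44) in endothelial cells. Id2 was 46.3 CPM in PS19 and 31.1 CPM in PZKO, a log2 ratio of −0.58 (95% interval −0.95 to −0.21) in microglia. Cdkn1a, a cell cycle inhibitor, was 17.04 CPM in PS19 and 6.495 CPM in PZKO, a log2 ratio of −1.39 (95% interval −1.82 to −0.97) in astrocytes and 42.4 CPM in PS19 and 24.3 CPM in PZKO, a log2 ratio of −0.80 (95% interval −1.03 to −0.57) in oligodendrocytes. Postn, an extracellular matrix protein gene, was 33.4 CPM in PS19 and 20.3 CPM in PZKO, a log2 ratio of −0.72 (95% interval −1.18 to −0.27) in microglia. Of the 16 genes of the list 11 span less than 20 kb, as do Id2, Id3 and Cdkn1a. Of all genes of that length 29.9% were lower past the fold in microglia, 38.4% in astrocytes and 33.1% in oligodendrocytes. In excitatory neurons the share was 29.1% and in endothelial cells 50%. The part of gene length in these values was not tested. The lists were not independent of earlier results, and nothing particular to them is read from these counts.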

How the data were processed

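Single-nucleus libraries of snap-frozen hippocampus (1 PS19, 1 PZKO) were analysed from the deposited UMI counts per gene and nucleus, which the authors made with Cell Ranger on mm10 and left unnormalized. The submitters' processing notes name Cell Ranger 7.0.1 and the header of the matrices 8.0.1. The methods name pools of 5 males per genotype and also separate processing of individual animals, and no animal label is in the matrices. The members and gene lists were chosen with earlier results of these data known. Nuclei with at least 600 UMIs, 300 genes and at most 5% mitochondrial UMIs were kept, and the highest Scrublet scores (scanpy 1.11.5) were removed at 0.8% per 1000 nuclei, 876 PS19 and 821 PZKO nuclei. Both libraries were clustered together on 2000 variable genes without the members and pathway genes, 30 components, 20 neighbours and Leiden resolution 1 (leidenalg 0.10.2), with no integration. Clusters were named from marker lists, and the thresholds for leaving one unnamed (score 0.4, or a runner-up above 0.5 of it) and for sub-classes and states were set after the clusters were seen.

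UMIs were summed per class and library and scaled to CPM. Levels have exact Poisson and ratios exact conditional binomial (Clopper-Pearson) 95% intervals, which cover counting error only. Nuclei were not treated as replicates and no p-value was computed. RNA of other cells was estimated from markers of other classes. The estimate exceeded the measured level for some genes and classes, so it is a guide and not a floor. Named genes were all members, of each list up to 4 with the most UMIs and, in each of 5 classes, 2 in each direction by the interval end nearest to 0, and the 3 genes most like each member. 1 gene that this rule names is not reported here. Alternatives included edgeR 4.0.16 TMM factors and DESeq2 1.42.0 size factors. The ratio and interval were tested on simulated data. Promoter windows are from RefSeq, and protein sequences were not used here.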

Additional observations from a re-analysis of the deposited data

Results flagged for a closer look

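Tgfb2 moved in opposite directions in different classes. Its log2 ratio of PZKO over PS19 in endothelial cells, 0.41 (95% interval 0.03 to 0.79), exceeded that in OPC, −0.92 (95% interval −1.42 to −0.43), by 1.33, and that in excitatory neurons, −0.67 (95% interval −0.76 to −0.57), by 1.08. With 1 library per genotype these differences were not tested. The endothelial value rests on 98 and 148 UMIs in PS19 and PZKO and the OPC value on 77 and 65. The OPC ratio was not recomputed under the alternatives. Oligodendrocyte markers summed to 642.7 CPM in PS19 OPC and 1642.5 CPM in PZKO OPC. The endothelial ratio was 0.00 with putative doublets kept, and the excitatory ratio −0.21 with equal weights of sub-classes.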

How the results depend on the processing

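No paired analysis was possible because each genotype has 1 library. The 41 log2 ratios of members with enough UMIs in the 5 main classes gave 427 values over the alternatives, of which 408 lay within the counting interval of the reported ratio, 19 did not, and 0 of those past the fold changed sign. Of members past the fold, microglia had 2, and 1 with the mean over nuclei, 1 with a stricter filter on nuclei and 3 with no minimum UMI count. Astrocytes had 1, and 2 with no minimum UMI count, with a minimum of 20, with ambient RNA subtracted and with the stricter filter. Oligodendrocytes had 0, and 1 with edgeR TMM scaling, DESeq2 size factors or either lower minimum, and 2 with ambient RNA subtracted or the stricter filter. Excitatory neurons had 3, 4 with either lower minimum, and 1 with equal weights of sub-classes or, chosen after seeing the data, of clusters. Endothelial cells had 3, 5 with no minimum UMI count and 0 with doublets kept. The cause was not tested. Equal weights of sub-classes level the shares of the groups of excitatory neurons, but not the shares of clusters pooled within a group. Subtracting ambient RNA moved Tgfb2 in oligodendrocytes from −0.17 to 3.44, where 7.84 and 4.39 CPM were subtracted from 8.08 CPM in PS19 and 7.17 CPM in PZKO. Leaving out 2 microglial sub-clusters led by neuronal or oligodendrocyte transcripts, also chosen after seeing the data, changed no call. Counts limit the small classes: macrophages, T cells and Cajal-Retzius cells had 0 members with 100 UMIs.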
